A study of Mus musculus with 3 samples.

Results

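Chromosome 11 of the mouse, the chromosome that carries *Nf2*, held 1226 of the 12507 ChIP-seq peaks listed for the mouse ovary. Members were all listed peaks of H3K4me3 or BNC1 whose sequence name was chromosome 11, at any position, and no measured value entered the choice. They comprised 1060 of 9929 H3K4me3 peaks, or 10.7% of that list, and 166 of 2578 BNC1 peaks, or 6.44%. The peaks of chromosomes 1 to 10, 5651 for H3K4me3 and 1749 for BNC1, served for comparison.

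The tissue was ovary from wild-type C57BL/6 J females at 8 weeks of age. The title of the BNC1 library calls it treated but names no agent, and it was grouped by its antibody. There were 3 libraries, with 1 immunoprecipitation for H3K4me3, 1 for BNC1 and 1 input without antibody, and the input was not analysed here as a list. With 1 library per antibody no difference has a replicate check, and no p-value is given. Intervals are at the 95% level and cover counting error only. They treat peaks as independent, although peaks often lie close together, so they can be too narrow. Reads that carry no molecular identifier can also be copies of 1 molecule. The ovary mixes oocytes with granulosa, theca, stromal and other cells, so the cell type behind a peak cannot be told. The label and the study's methods name different suppliers for the BNC1 antibody.

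H3K4me3 is trimethylation of lysine 4 on histone H3, a mark deposited around the start sites of active or poised genes, above all those with CpG-rich promoters. BNC1 (basonuclin 1) is a zinc finger protein of the nucleus found in germ cells and in the basal cells of stratified epithelia. *Nf2* encodes merlin, a scaffold beneath the cell membrane that activates the Hippo kinases, which in turn keep the coactivator YAP out of the nucleus. The study asked whether BNC1 binds the *Nf2* promoter, and that question is why the proximal part of chromosome 11 is described peak by peak below. From ChIP-seq the study proposed *Nf2* as a possible target. It then reported binding at the promoter from ChIP–qPCR in ovaries and from luciferase assays. That report was not tested here.

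Part of the promoter in question is shown because binding was asked about there. The study's promoter deletion assay identified a longer fragment before the start as required for regulation by BNC1. The printed bases can therefore cover only part of that fragment. RefSeq places the 250 bases before the first *Nf2* start at chr11:4849545-4849794 on the minus strand of GRCm38.p6. They are written 5′ to 3′ with each CpG in capitals.
*Nf2* upstream sequence: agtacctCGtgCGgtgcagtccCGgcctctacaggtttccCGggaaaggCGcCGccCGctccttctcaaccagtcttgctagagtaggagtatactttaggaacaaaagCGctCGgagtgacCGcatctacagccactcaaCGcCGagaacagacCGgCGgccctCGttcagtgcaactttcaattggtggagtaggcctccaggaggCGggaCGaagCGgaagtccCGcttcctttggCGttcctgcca

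This window held 20 CpGs and had a G and C content of 59.2%. Across 32851 RefSeq windows of the same length the median was 6 CpGs, and 82.1% of windows held fewer than 20. On chromosome 11 the median of 2289 windows was 8. A second listed *Nf2* start had 2 CpGs in its window and a G and C content of 33.6%. The pentamer CCAAT, searched on both strands, occurred once in the printed window, as its reverse complement, and in 33.8% of all windows. These letters describe the sequence and locate no binding site.

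The positions of the peaks below are in mm9, the build that the submitters' processing notes name. Positions in mm9 and GRCm38.p6 are not interchangeable, and no position was converted. The printed promoter therefore cannot be laid over the peaks, no peak was assigned to *Nf2* or to any other gene, and the sequences under the peaks are not shown. By order alone, the RefSeq table of GRCm38.p6 lists the protein-coding genes *Mtmr3*, *Ascc2*, *Uqcr10*, *Zmat5* and *Cabp7* before *Nf2* on chromosome 11, and *Nipsnap1*, *Thoc5*, *Nefh*, *Ap1b1* and *Gas2l1* after it. *Nipsnap1* encodes a mitochondrial protein, *Thoc5* a subunit of the THO complex of mRNA export, *Nefh* the heavy neurofilament protein and *Ap1b1* a subunit of the AP-1 clathrin adaptor.

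To learn how chromosome 11 stood among its peers, peak densities were first compared. Over the 121.8 Mb that the lists span on chromosome 11, H3K4me3 peaks numbered 8.70 per Mb, against 3.69 per Mb on chromosomes 1 to 10 pooled. The ratio of the densities was 2.36 (exact interval 2.21 to 2.52). Chromosome 11 ranked first of the 11 chromosomes, and the others ran from 1.91 per Mb on chromosome 6 to 6.12 per Mb on chromosome 8. The H3K4me3 peaks of chromosome 11 covered 0.385% of its length, compared with 0.161% on the other 10.

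BNC1 did not stand apart in the same manner. Its peaks numbered 1.36 per Mb on chromosome 11 and 1.14 per Mb on chromosomes 1 to 10, a ratio of 1.19 (exact interval 1.01 to 1.40). Chromosome 11 ranked sixth of 11, between extremes of 0.236 per Mb on chromosome 7 and 2.18 per Mb on chromosome 8. The spread among single chromosomes was thus far wider than the difference between chromosome 11 and the pool. When peaks had to beat the poorest p-value of their list by 10 times, the ratio was 0.996 (0.607 to 1.55), with 21 peaks left on chromosome 11. That interval includes 1.19, so these few peaks do not settle the direction of the ratio. For every 100 H3K4me3 peaks chromosome 11 had 15.7 BNC1 peaks, and the pool had 31.0.

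**Figure D1:**
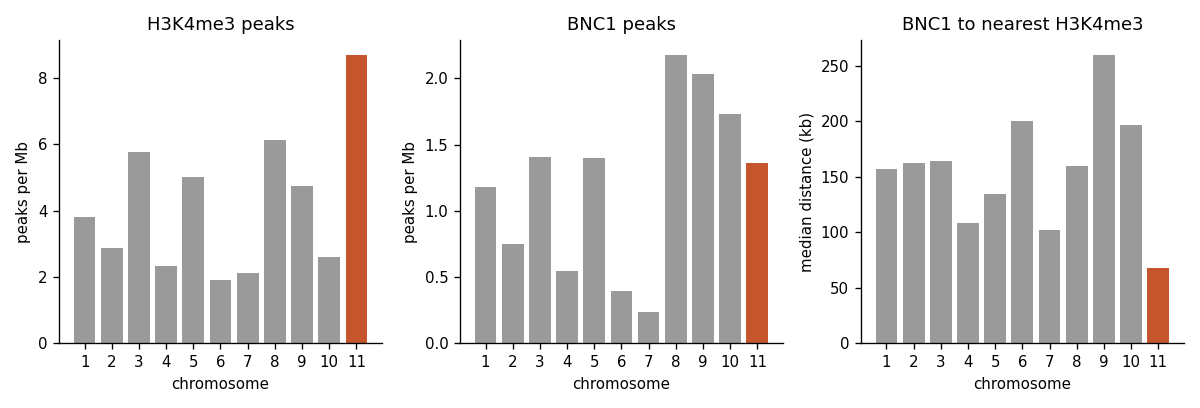
Bars give H3K4me3 peaks per Mb (left), BNC1 peaks per Mb (middle) and the median distance in kb from BNC1 peaks to the nearest H3K4me3 peak (right) for chromosomes 1 to 11, with chromosome 11 coloured. Chromosome 11 is highest in H3K4me3 density at 8.70 per Mb, sixth in BNC1 density at 1.36 per Mb, and has the shortest median distance at 67.8 kb.

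Single H3K4me3 peaks of chromosome 11 resembled those elsewhere. Their median width was 396 bp (interquartile range 306 to 516 bp) against 370 bp (289 to 498 bp) on chromosomes 1 to 10. The median peak held 46 tags (34 to 63), meaning sequenced fragments inside the peak, against 42 (32 to 61). Median fold enrichment over the background expected by the caller was 7.15 (6.17 to 8.14) against 7.41 (6.42 to 8.46). The interquartile ranges overlapped in all 3 measures.

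Long H3K4me3 peaks were a small share on chromosome 11, as on most of the other chromosomes. The widest peak spanned 1483 bp, whereas peaks of up to 6443 bp were listed on chromosome 1. A width of 1000 bp or more was reached by 22 peaks, or 2.08% (Wilson interval 1.37 to 3.12%), compared with 169 peaks, or 2.99% (2.58 to 3.47%), on chromosomes 1 to 10. That share ranged from 0% on chromosome 7 to 10.2% on chromosome 9. Chromosome 11 held rank 5 of 11, above the median of 1.31% over the other 10. Without chromosome 9 the pooled share was 2.15% (1.79 to 2.59%).

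The H3K4me3 peak of highest fold enrichment on chromosome 11 was also the one with the most tags. It ran from 118917588 to 118919031 and held 263 tags at 14.3-fold. Its p-value, as 10 × −log10 p, was 749.57. The nearest BNC1 peak was 391634 bp away. The second in fold enrichment, from 87256119 to 87256380, had 30 tags at 13.84-fold. The third, from 3188734 to 3189018, had 36 tags at 13.07-fold and was the first H3K4me3 peak of the chromosome. High fold enrichment thus occurred at tag-poor and at tag-rich peaks. By tags, the next were a peak from 108226959 to 108228441 with 215 tags at 6.44-fold, and another from 115835587 to 115837003 with 200 tags at 8.54-fold.

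BNC1 peaks of chromosome 11 were narrow and rested on few tags. Their median width was 149 bp (139 to 157 bp), and 91 of 166, or 54.8% (Wilson interval 47.2 to 62.2%), held 8 tags, the fewest of any listed peak. On chromosomes 1 to 10 this share was 52.0% (49.7 to 54.4%). Peaks of 10 tags or fewer made up 94.0% of those on chromosome 11. Median fold enrichment was 8.37 in both sets, a value that 40 of the 166 peaks shared exactly. The summit, the position of highest signal, lay outside the middle of the peak, taken as the central one of 3 equal parts, in 45.2% of chromosome 11 BNC1 peaks (37.8 to 52.8%) and in 44.1% on chromosomes 1 to 10 (41.8 to 46.4%).

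In fold enrichment, the leading BNC1 peak ran from 106609691 to 106609829, with 9 tags at 13.39-fold and an H3K4me3 peak 40157 bp away. The next, from 86399697 to 86399849, had 12 tags at 12.85-fold and the strongest p-value of the 166 peaks, with a 10 × −log10 p of 72.06. It was the one among the leading peaks that lay close to H3K4me3, at 1388 bp. A peak from 93919805 to 93919926 followed, with 9 tags at 12.55-fold. The next places fell within a tie of 8 peaks at 11.71-fold. By the stronger p-value they went to a peak from 42822071 to 42822183 with 9 tags and to one from 49253269 to 49253377 with 8 tags.

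A pair of BNC1 peaks stood far above the others in tags. The first BNC1 peak of the chromosome, from 3072678 to 3073840, had 322 tags but a fold enrichment of 2.33, the lowest of the 166. It was 1163 bp wide and 114893 bp from the nearest H3K4me3 peak. A peak from 53953843 to 53954279 had 134 tags at 7.47-fold. The third in tags, from 65877908 to 65878156, had 14 tags at 10.04-fold. The leading pair thus held 456 of the 1887 BNC1 tags on chromosome 11, or 24.2%, and the remaining 164 peaks averaged 8.73 tags each.

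In both of these peaks a background index was high as well. The index divides the tags per kb of a peak by its fold enrichment. It was 118.8 in the first and 41.0 in the second, against a median of 6.58 over chromosome 11 BNC1 peaks. Because it is computed from the tags by which these peaks were chosen, it is no independent measure of their background. Background was not measured from the input here. The part of local background in their tag counts was not tested.

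**Figure D2:**
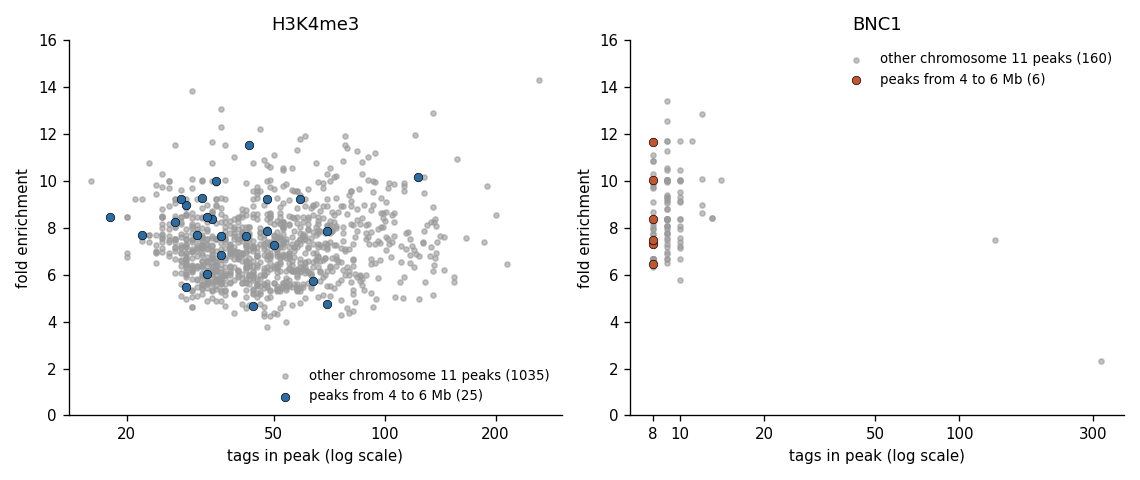
Each point is 1 peak of chromosome 11, with tags on a log axis and fold enrichment on a linear axis, for H3K4me3 (left) and BNC1 (right), and peaks from 4 to 6 Mb are coloured. H3K4me3 peaks spread from 16 to 263 tags, BNC1 peaks crowd at 8 to 14 tags apart from those with 134 and 322, and all 6 coloured BNC1 points sit at 8 tags.

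The distribution along the chromosome was examined next, in windows of 5 Mb and 1 Mb. H3K4me3 was far denser distally than proximally. The 10 windows of 5 Mb up to 50 Mb held 0 to 39 H3K4me3 peaks (median 8), and the 15 windows past it held 17 to 110 (median 53), the last of them cut short by the end of the list. This position was chosen after the windows were seen. In all, 928 of the 1060 H3K4me3 peaks, or 87.5% (Wilson interval 85.4 to 89.4%), lay past 50 Mb. Their density was 12.9 per Mb there and 2.64 per Mb before.

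BNC1 showed no such shift. Windows held 3 to 13 BNC1 peaks on either side of 50 Mb, with medians of 7 before and 6 past it. Past 50 Mb lay 93 of the 166 peaks, or 56.0% (48.4 to 63.4%). The density was 1.29 per Mb there and 1.46 per Mb before. For every 100 H3K4me3 peaks there were therefore 55.3 BNC1 peaks in the proximal stretch and 10.02 in the distal one.

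Across the 25 windows of 5 Mb, the BNC1 and H3K4me3 counts had a Pearson r of −0.24 and a Spearman rho of −0.15. Over the 122 windows of 1 Mb the values were 0.11 and 0.17. On chromosomes 1 to 10, r was 0.20 and rho 0.33 over 311 windows of 5 Mb, and r was 0.13 and rho 0.27 over 1536 windows of 1 Mb. These are descriptions, since the windows share 2 libraries and neighbouring windows are not independent. The 5 Mb windows fullest in H3K4me3, with 105 to 110 peaks, held 3 to 5 BNC1 peaks, and those fullest in BNC1, with 13 each, held 9 and 42 H3K4me3 peaks.

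**Figure D3:**
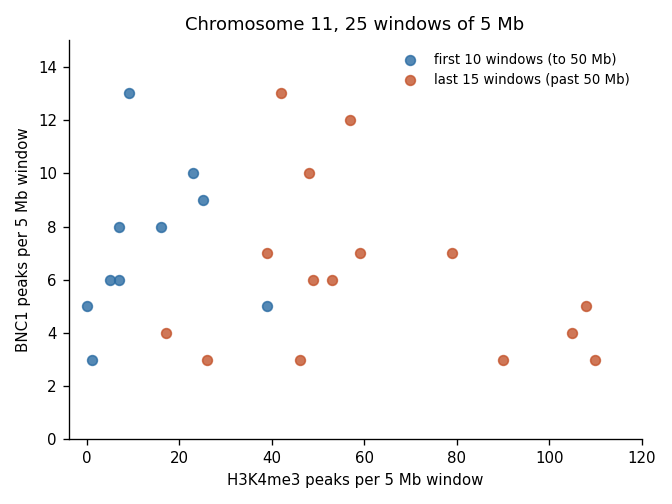
Each point is 1 of the 25 windows of 5 Mb on chromosome 11, with its H3K4me3 peaks on the x axis and its BNC1 peaks on the y axis, coloured by the side of 50 Mb on which it lies. The H3K4me3 counts run from 0 to 39 before 50 Mb and from 17 to 110 past it, while BNC1 counts run from 3 to 13 on both sides.

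Peak size and background shifted along with H3K4me3 density. Median width was 316 bp before 50 Mb and 405 bp past it, median tags were 36 and 47, and median fold enrichment was 7.69 and 7.02. The background index had a median of 14.4 before and 16.8 past 50 Mb. Over the 23 windows of 5 Mb with at least 5 H3K4me3 peaks, the rank correlation of the H3K4me3 count with the window's median index was 0.73 (Pearson r 0.75), given as a description of windows from 1 library. The part of the background in the density of peaks was not tested.

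Within the 122 windows of 1 Mb, H3K4me3 peaks were concentrated. The 10 fullest windows held 327 peaks, or 30.8% (Wilson interval 28.1 to 33.7%). The windows from 98 to 99 Mb and from 120 to 121 Mb had 37 peaks each, and those from 100 to 101 Mb and from 115 to 116 Mb had 36 each. At least 20 peaks were found in 21 windows, or 17.2%, compared with 2.41% of the 1536 windows on chromosomes 1 to 10. At the other end, 37 windows, or 30.3%, held no H3K4me3 peak, against 37.4%. Density was 8.70 per Mb on chromosome 11 and 3.69 per Mb on chromosomes 1 to 10. The contrasts in full and empty windows cannot be told apart from that difference in density.

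BNC1 peaks were spread more evenly than H3K4me3 peaks. The variance of their count per 1 Mb window was 1.34 times its mean on chromosome 11 and 2.48 times on chromosomes 1 to 10, whereas for H3K4me3 the same figures were 11.7 and 7.99. Without chromosome 9 the BNC1 figure of the pool was 1.57. Such figures can rise with the mean count, and H3K4me3 density was 8.70 per Mb on chromosome 11 and 3.69 per Mb on the pool. The order of the H3K4me3 figures therefore cannot be told apart from density. The fullest windows, from 62 to 63 Mb and from 108 to 109 Mb, had 6 BNC1 peaks each. They were followed by the windows from 4 to 5 Mb and from 53 to 54 Mb, with 5 each. A single window on chromosomes 1 to 10 held up to 32. Of the 122 windows, 67 had peaks of both lists, 18 of H3K4me3 alone, 19 of BNC1 alone and 18 of neither.

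Gaps between neighbouring peaks differed accordingly. The median gap was 23.1 kb for H3K4me3 on chromosome 11 and 47.1 kb on chromosomes 1 to 10, while for BNC1 it was 439 kb and 410 kb. The longest H3K4me3 gap ran from 9019031 to 16652170, or 7.63 Mb. It was followed by one from 23795253 to 29030772 (5.24 Mb) and another from 35816019 to 40547394 (4.73 Mb). All 3 were proximal to 50 Mb. The longest BNC1 gap, 5.66 Mb, ran from 32560054 to 38223243. The next BNC1 gaps were distal, from 112525228 to 115424212 (2.90 Mb) and from 62703693 to 65453932 (2.75 Mb).

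Many H3K4me3 peaks had a close neighbour. Of 1059 gaps on chromosome 11, 134 were of 200 bp or less, a share of 12.7% (Wilson interval 10.8 to 14.8%) against 9.84% (9.09 to 10.6%) on chromosomes 1 to 10. Gaps of 1 kb or less made up 24.5% (22.0 to 27.1%) against 20.5% (19.5 to 21.6%). Joining peaks within 1 kb reduced the 1060 peaks to 801. In the BNC1 list the shortest gap on chromosome 11 was 6547 bp, so that no peak was joined, whereas on chromosomes 1 to 10 there were 23 BNC1 gaps of 1 kb or less.

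Clusters were then defined as 3 or more peaks linked by gaps of at most 5 kb for H3K4me3 and 100 kb for BNC1. For H3K4me3, 230 peaks, or 21.7% (Wilson interval 19.3 to 24.3%), fell into 60 clusters. The share was 16.8% (15.9 to 17.8%) on chromosomes 1 to 10, and among single chromosomes only chromosome 3, at 24.1%, was higher. Clusters of 3 peaks numbered 39, those of 4 numbered 10, and those of 5 or more numbered 11.

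The largest H3K4me3 cluster had 10 peaks over 14.5 kb, from 8564675 to 8579162, with 29 to 59 tags a peak. It lay in the sparse proximal stretch. The next had 8 peaks each, from 100144929 to 100152840 with 30 to 136 tags, from 53607595 to 53618043 with 28 to 127 tags, and from 61455116 to 61467072 with 30 to 82 tags. None of the 60 clusters had a BNC1 peak within its span. Among all BNC1 peaks of chromosome 11, however, only 1.20% overlapped any H3K4me3 peak, clustered or not. From the largest cluster the nearest BNC1 peak was 32423 bp away, and from a cluster of 4 peaks from 8725807 to 8731518 it was 80 bp away.

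For BNC1, 15 peaks, or 9.04% (5.55 to 14.4%), fell into 5 clusters, all of 3 peaks, against 13.3% (11.8 to 14.9%) on chromosomes 1 to 10. The direction of this difference rested on chromosome 9, where 109 of 251 BNC1 peaks, or 43.4%, were in clusters. Without it the pooled share was 8.21% (6.93 to 9.71%), below that of chromosome 11, and chromosome 11 held rank 5 of 11. The tightest spanned 59.0 kb from 108335801 to 108394835, with 8 to 10 tags a peak. Another, from 3072678 to 3134349, held the 322-tag peak and was 54384 bp from H3K4me3. A cluster from 62489983 to 62553178 had a member 479 bp from an H3K4me3 peak. The others ran from 29282650 to 29360395 and from 43169682 to 43265854, and the latter was the one cluster with H3K4me3 peaks, 2 of them, inside its span.

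Whether BNC1 peaks of chromosome 11 sat at H3K4me3 was measured by the bases between the edges of each BNC1 peak and its nearest H3K4me3 peak. Overlap of at least 1 bp was found for 2 of 166 peaks, or 1.20% (Wilson interval 0.331 to 4.29%), and on chromosomes 1 to 10 for 24 of 1749, or 1.37% (0.924 to 2.03%). Within 10 kb lay 21 peaks, or 12.7% (8.43 to 18.6%), against 158, or 9.03% (7.78 to 10.5%). The intervals overlapped in both cases. The peak closest to the 10 kb limit on its inner side was at 8261 bp, and 3 peaks lay just outside it, at 10047, 10220 and 10397 bp.

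The median distance differed by more. It was 67.8 kb on chromosome 11 (interval of the median 48.6 to 102 kb) and 170 kb on chromosomes 1 to 10 (146 to 194 kb), and the shortest median among the other 10 was 102 kb, on chromosome 7. The quartiles were 22.5 and 257 kb on chromosome 11 and 42.0 and 560 kb on the others. The difference lay largely between 10 and 100 kb, where 45.2% of chromosome 11 peaks (37.8 to 52.8%) and 31.3% of the others (29.1 to 33.5%) were found. H3K4me3 peaks were also closer to one another, with a mean spacing of 115 kb on chromosome 11 and 271 kb on the pool. Expressed in units of that spacing, the median distance was 0.590 and 0.626, and chromosome 11 ranked sixth of 11.

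**Figure D4:**
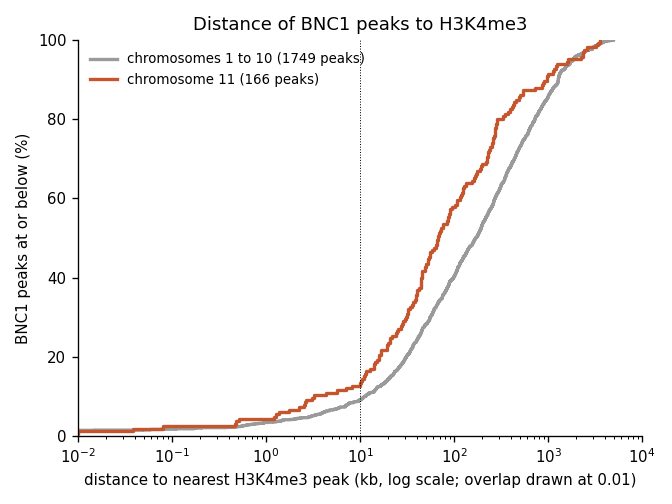
The lines give the cumulative percentage of BNC1 peaks (y axis) by distance to the nearest H3K4me3 peak in kb (log x axis, overlap drawn at 0.01), for chromosome 11 and for chromosomes 1 to 10 pooled, with a dotted line at 10 kb. The curve of chromosome 11 lies above that of the pool from 1 kb to 1 Mb, with medians of 67.8 and 170 kb.

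The BNC1 peaks of the chromosome had medians of 8 tags and 8.37-fold, with upper quartiles of 9 tags and 10.04-fold. The 2 that overlapped H3K4me3 are too few to be compared with them in strength. The first ran from 57713981 to 57714137, with 9 tags at 8.37-fold, and shared 100 bp with an H3K4me3 peak from 57714038 to 57714863 that had 94 tags at 9.97-fold. The second, from 100869971 to 100870140, had 9 tags at 10.57-fold and lay wholly within an H3K4me3 peak from 100869892 to 100870555 with 73 tags at 8.23-fold. Neither beat the poorest p-value of the BNC1 list by 10 times, and of all 166 BNC1 peaks on chromosome 11 only 21, or 12.7%, did.

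A further 5 BNC1 peaks lay within 1 kb of H3K4me3 without touching it. The closest, from 120178444 to 120178565, was 38 bp from a peak of 68 tags, and another, from 8731599 to 8731739, was 80 bp from a peak of 62 tags. Those at 115424213, 62489983 and 107410087 were 467, 479 and 510 bp from peaks of 84, 65 and 31 tags. All 5 held 8 to 10 tags, as did 94.0% of all BNC1 peaks on chromosome 11.

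Taken as a set, the 21 BNC1 peaks within 10 kb of H3K4me3 had a median of 9 tags (8 to 13) and a median fold enrichment of 7.97. The 145 farther peaks had a median of 8 tags and 8.37-fold. The 21 H3K4me3 partners had a median width of 441 bp and 46 tags, compared with 396 bp and 46 tags for all H3K4me3 peaks of the chromosome. Of the 21 pairs, 17 lay past 50 Mb, where 18.3% of BNC1 peaks (Wilson interval 11.7 to 27.3%) were within 10 kb, against 5.48% (2.15 to 13.3%) before it. Of all H3K4me3 peaks, 87.5% lay past this limit, which was chosen from their counts, at 12.9 per Mb against 2.64 before it. The contrast cannot be told apart from that difference in H3K4me3 density. Seen from H3K4me3, 34 of 1060 peaks, or 3.21% (2.30 to 4.45%), had a BNC1 peak within 10 kb, and on chromosomes 1 to 10 the share was 3.72% (3.25 to 4.24%).

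The interval from 4 to 6 Mb contained 25 H3K4me3 and 6 BNC1 peaks. It was listed in full because the *Nf2* promoter falls between the same numbers in GRCm38.p6, and whether it does so in mm9 was not tested. These correspond to 12.5 and 3 peaks per Mb, above the chromosome's own 8.70 and 1.36. Among the 61 windows of 2 Mb on chromosome 11, the interval held rank 20 for H3K4me3 and rank 4 for BNC1, each time tied with others. No BNC1 peak of the interval overlapped H3K4me3 or came within 10 kb of it, and the distances ran from 11669 to 90426 bp. Over all BNC1 peaks of chromosome 11 these shares were 1.20% and 12.7%, and among 6 peaks shares of this size can give none. The median distance was 57472 bp in the interval and 67808 bp in the rest of the chromosome.

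All 6 BNC1 peaks of the interval held 8 tags, the lowest number in the list, and their 10 × −log10 p ran from 40.42 to 43.08. The first, from 4166919 to 4167045, had a fold enrichment of 7.33 and lay 24878 bp before an H3K4me3 peak. The second, from 4295340 to 4295493, had the highest fold enrichment of the 6, at 11.66, and the third, from 4403797 to 4403924, had 7.47. Both fell within the longest H3K4me3 gap of the interval, 284472 bp from 4209879 to 4494350.

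The fourth BNC1 peak, from 4549667 to 4549816, had a fold enrichment of 6.45 and was the nearest to H3K4me3, 11669 bp past the peak ending at 4537997. The fifth, from 4725486 to 4725640, had 8.37-fold and lay 69626 bp before the H3K4me3 peak that starts at 4795267. These 2 shared the second longest H3K4me3 gap, 257269 bp from 4537998 to 4795266. The sixth, from 5045344 to 5045487, had 10.04-fold and was 45318 bp past H3K4me3. No BNC1 peak was listed between it and 6 Mb, so 5 of the 6 lay from 4 to 5 Mb. None of the 6 beat the poorest p-value of the list by 10 times, and on the whole chromosome only 21 of 166, or 12.7%, did.

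The H3K4me3 peaks of the interval had a median of 36 tags (18 to 123), a median width of 341 bp and a median fold enrichment of 7.87. The rest of the chromosome had 46 tags, 397 bp and 7.12-fold. Their median background index was 13.8, against 16.5 in the rest.

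At the proximal end of the interval, a peak from 4018177 to 4018650 had 64 tags at 5.73-fold. Another, from 4060298 to 4060717, had 48 tags at 7.87-fold. Then came a cluster of 5 peaks from 4191924 to 4203183, beginning 24878 bp past the first BNC1 peak. Its members started at 4191924 (33 tags, 6.04-fold), 4196463 (42 tags, 7.66-fold), 4197148 (29 tags, 5.47-fold), 4200269 (50 tags, 7.26-fold) and 4202610 (70 tags, 7.85-fold). The last of them had the strongest p-value of the cluster, with a 10 × −log10 p of 145.11. A pair just beyond it, from 4208256 to 4208634 with 44 tags at 4.68-fold and from 4209613 to 4209878 with 32 tags at 9.26-fold, missed the cluster by a gap of 5072 bp.

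After the long gap, 3 peaks of modest size followed. They ran from 4494351 to 4494656 (31 tags, 7.69-fold), from 4506399 to 4506736 (36 tags, 6.86-fold) and from 4537734 to 4537997 (29 tags, 8.96-fold). Beyond the second gap, a peak from 4795267 to 4795637 stood alone with 36 tags at 7.66-fold. The strongest peak of the interval came next, from 4957781 to 4958626, with 123 tags at 10.17-fold and a 10 × −log10 p of 338.44. It was the widest as well, at 846 bp, and 86717 bp from BNC1.

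A close pair lay near 5 Mb. It consisted of peaks from 4999147 to 4999434 (34 tags, 8.38-fold) and from 4999615 to 5000025 (48 tags, 9.22-fold), 180 bp apart. The peak from 5161853 to 5162237, with 43 tags, had the highest fold enrichment of the interval at 11.53. The smallest was next, from 5344404 to 5344555, with 18 tags at 8.46-fold. From there to 6 Mb every H3K4me3 peak was more than 100 kb from BNC1.

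The remaining peaks were spaced more widely. A pair from 5420149 to 5420473 (33 tags, 8.46-fold) and from 5421185 to 5421423 (27 tags, 8.23-fold) was 711 bp apart. It was followed by peaks from 5607391 to 5607607 (22 tags, 7.69-fold), from 5661838 to 5662102 (28 tags, 9.22-fold) and from 5759453 to 5760086 (70 tags, 4.75-fold). The series ended with a pair from 5854928 to 5855439 (59 tags, 9.22-fold) and from 5855447 to 5855700 (35 tags, 9.99-fold), separated by 7 bp. Of the 25 peaks, 18 beat the poorest p-value of the H3K4me3 list by 10 times, and on the whole chromosome 828 of 1060, or 78.1%, did.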

How the data were processed

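The peak lists that the authors deposited, 1 per antibody and each from a single library, were used unchanged. The submitters' processing notes name mm9, Bowtie2 and MACS2 2.1.0, with no role or order. The column names, however, are those written by MACS version 1, and the caller's settings and control are not given in the sources used here. Per the file headers, tags are a count of tags inside each peak without normalization. The deposited p-values are −log10 values multiplied by 10, fold enrichment is a linear ratio, the false discovery rate is in percent, and positions, widths and summits are in bp. Library depth is unknown. Tags in peaks of chromosome 11 amounted to 56582 for H3K4me3 and 1887 for BNC1.

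No peak was filtered out. Density was the peak count divided by the last listed position of either list. Windows were counted from position 1 and peaks placed by their midpoint. Shares carry Wilson intervals, density ratios exact binomial intervals and medians order-statistic intervals. Distance, cluster, window and merging steps were tested on simulated data and were exact in 20 of 20 simulations. Named peaks are those from 4 to 6 Mb, those that overlap, and the leaders by fold enrichment, tags, window, gap and cluster. BNC1 peaks within 1 kb of H3K4me3 and the limit at 50 Mb were chosen after their values were seen. The chromosome, the interval and the comparisons were chosen with earlier results of these data known. Python 3.11.15, numpy 2.4.6, pandas 2.3.3, scipy 1.17.1 and matplotlib 3.10.9 were used.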

Additional observations from a re-analysis of the deposited data

How the results depend on the processing

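Of 38 recomputed values, 23 stayed inside the interval of the reported value (counts within 1.5 times), 14 fell outside and 1 reversed. Leaving chromosome 9 out of the comparison was added after seeing the data. It counts among the 23 by construction, since it cannot change the chromosome 11 value. The pooled BNC1 share in clusters, however, fell from 13.3% to 8.21%, from above to below the 9.04% of chromosome 11. The cause of the other changes was not tested except where the setting itself fixes it. When peaks had to beat the poorest p-value of their list by 10 times, 21 of the 166 BNC1 peaks and 0 of the 6 from 4 to 6 Mb were left. The BNC1 density ratio reversed to 0.996 (0.607 to 1.55), an interval that includes the reported 1.19. BNC1 overlap with H3K4me3 and the BNC1 share in clusters were 0%, but 0 of 21 peaks allows up to 15.5% (Wilson), which includes both reported shares. The H3K4me3 share in clusters was then 14.9%, still above the 12.1% of chromosomes 1 to 10.

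Against the median of the 10 chromosomes, the H3K4me3 density ratio was 2.61, and under the other settings it ran from 2.24 to 2.38. Limits moved shares by their construction. BNC1 peaks near H3K4me3 were 4.22% within 1 kb and 57.8% within 100 kb, H3K4me3 peaks in clusters 16.3% at 2 kb and 30.8% at 10 kb, and BNC1 peaks in clusters 3.61% at 50 kb and 23.5% at 200 kb. The fullest H3K4me3 windows held 26.5% when shifted by 500 kb and 20.6% as 2 windows of 5 Mb. Few tags per BNC1 peak limit what can be said of single BNC1 peaks.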
